A study of Mus musculus with 21 samples.

Results

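The proteasome is the protease complex that degrades ubiquitin-tagged proteins, and in mice its subunits are named Psma to Psmg with a number. All genes of the table whose symbol began in this way were taken, which gave 48 of 12994 genes. Of these, 47 code for subunits, activators, an inhibitor or assembly chaperones of the proteasome, and 1, Psmc3ip, matched by spelling only, since it codes for a cofactor of meiotic recombination. Psma8, a subunit of the testis, and Psmb11, a subunit of the thymic cortex, were not analysed here. By role, the genes were 7 alpha subunits and 4 structural beta subunits of the core, 3 constitutive catalytic subunits, 3 immunoproteasome subunits, 6 ATPases, 11 non-ATPases and 3 assembly chaperones of the regulatory particle, 5 activator genes, 1 inhibitor gene and 4 assembly chaperones of the core.

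Spleen T cells of female C57BL6/J mice were sorted by surface staining as CD45+ CD11b- CD3+ cells that carried either CD4 or CD8, named LT4 and LT8 in the sample labels. The mice entered an enriched environment (EE), a large cage with wheels, tunnels and toys that were changed, or a standard environment (SE), a smaller cage without objects, at 4 weeks of age and stayed for 4 weeks. The CD4+ population was measured in 6 mice of EE and 5 of SE, the CD8+ population in 6 of EE and 4 of SE. This gave 21 samples from 12 mice, 9 of them with both populations. According to the labels the mice of an environment shared a cage, and an effect of the cage cannot be told apart from that of the environment. The labels name no transgene, treatment or deletion for these groups.

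The core of the proteasome is a barrel of stacked rings, with alpha subunits at both ends and beta subunits in the middle, and the beta subunits Psmb5, Psmb6 and Psmb7 hold the active sites that cut proteins. In lymphocytes and in cells exposed to interferon, the related subunits Psmb8, Psmb9 and Psmb10 take their places in newly built barrels and form the immunoproteasome, which is known for making peptides that fit MHC class I molecules. The barrel is opened either by the regulatory particle, built of Psmc and Psmd subunits, or by activator rings, of which the ring of Psme1 and Psme2 is also induced by interferon.

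The deposited values were molecule counts (cDNA molecules with unique molecular identifiers, so that each molecule counts as 1 whatever the length of its gene) divided by a size factor of the sample, here called normalized counts. Levels of different genes were therefore compared as molecules, without division by gene length. The table held between 145546 and 221454 molecules per sample. The mean normalized count of Cd4 was 58.4 ± 12.0 over the 11 CD4+ and 0.374 ± 0.484 (SD) over the 10 CD8+ samples, and that of Cd8a was 0.784 ± 1.06 and 98.4 ± 14.5, as the labels have it. Of the markers of other cells, the summed count of 7 B cell genes ranged from 35.005 to 297 in CD4+ samples and from 33.0 to 101 in CD8+ samples. The summed count of 3 haemoglobin genes was 475 in the CD8+ sample of EE mouse 6 and 958 in that of SE mouse 3, against 0 to 26.7 in the other 19 samples. The summed count of 3 of 6 myeloid genes was 11.4 to 57.7, and that of 1 of 2 NK cell genes 0 to 1.83; the other genes of these lists were not analysed here. In such bulk samples a lower count can come from fewer cells of a type or from less RNA per cell, and these cannot be told apart. Comparisons used limma on log2(normalized count + 1), which understates the differences of low genes, with Benjamini-Hochberg adjustment over all genes with a mean above 2.

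The 48 genes together took 0.733% ± 0.0388 (SD, n = 21) of the molecules of a sample, and the group means lay between 0.710% in CD4+ SE and 0.751% in CD4+ EE samples. Psmb8, an immunoproteasome subunit, was the highest member, with a normalized count of 124 ± 15.0 over the 21 samples, and ranked 183 in the table. It was followed by the activator genes Psme2 with 111 ± 17.0 and Psme1 with 89.0 ± 16.6. The structural beta subunit Psmb1 came next with 59.6 ± 8.96, followed by Psmb9 with 54.9 ± 10.7. These neighbours differed by less than the spread of the samples between Psmb8 and Psme2 and between Psmb1 and Psmb9.

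Within the core, the alpha subunits ranged from Psma4 with 17.6 to Psma7 with 40.5, a 2.30-fold range, and the structural beta subunits from Psmb2 with 24.3 to Psmb1 with 59.6. The ATPases of the regulatory particle ranged from Psmc6 with 9.32 to Psmc3 with 21.4, and its non-ATPases from Psmd6 with 8.204 to Psmd8, a lid subunit, with 27.2. The chaperones that assemble the regulatory particle ranged from Psmd9 with 4.33 to Psmd5 with 9.89. Among the chaperones of the core, Psmg3 had 4.42 and Psmg4 16.2. The widest range was among the activator genes, 24.4-fold from Psme4 with 4.54 to Psme2. Psme3, which codes for the nuclear activator ring, had 9.15, and Psmf1, the inhibitor that competes for the ends of the barrel, had 7.16. Psmc3ip had 1.49 ± 1.66 and at most 5 molecules in a sample. It, Psmd9, Psmg1 and Psmg3 were at 0 in at least 1 sample, and a count of 0 allows up to 3 molecules. Between the samples of a group, the variance was 1.49 times that of counting alone in the median of 47 members, from 0.557 for Psmb5 to 3.00 for Psmg4, and 1.59 times in the median of 7938 genes.

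**Figure D1:**
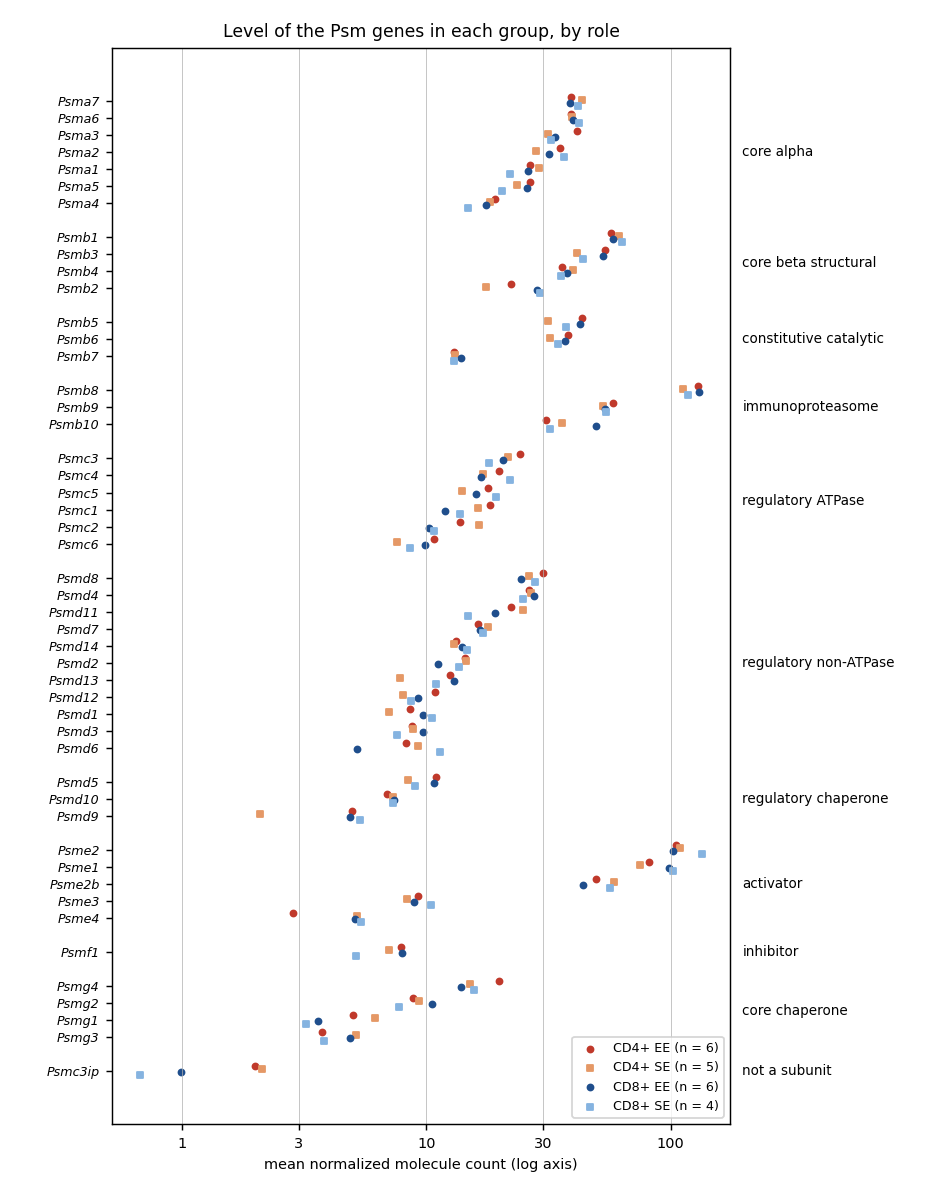
Mean normalized molecule count (log axis) of each of the 48 Psm genes in the 4 groups, ordered by role and, within a role, by level. Circles are EE, squares are SE, warm colours are CD4+ and blue are CD8+ T cells. Psmb8 and Psme2 lie above 100 in all 4 groups. Psmc3ip is lowest except in CD4+ SE samples, where Psmd9 has 2.09 and Psmc3ip 2.13.

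The catalytic subunits come in pairs of related genes, and the share of molecules in a pair can only be read if the genes can be told apart. In GENCODE M21 on GRCm38, Psmb8 lies on chromosome 17 from 34197721 to 34201454 (plus strand) and Psmb9 on the same chromosome from 34181987 to 34187764 (minus strand), with the peptide transporter genes Tap1 and Tap2 beside them within the MHC. Psmb10 lies on chromosome 8 from 105935735 to 105938444 (minus strand). Psmb5, Psmb6 and Psmb7 lie on chromosomes 14, 11 and 2. The coding sequences of Psmb5 and Psmb8 were 66.8% identical and their longest identical run was 18 bases, those of Psmb6 and Psmb9 were 66.2% identical with a longest run of 11 bases, and those of Psmb7 and Psmb10 were 63.3% identical with a longest run of 15 bases. The 90 coding bases around the longest identical run are shown for the pair of the highest member and for the pair of Psmb10, from the GENCODE M21 transcripts, 5′ to 3′, with capitals where the genes of a pair differ.
Psmb5, coding bases 438 to 527: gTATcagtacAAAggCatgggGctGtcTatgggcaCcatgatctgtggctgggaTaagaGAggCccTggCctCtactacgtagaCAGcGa
Psmb8, coding bases 477 to 566: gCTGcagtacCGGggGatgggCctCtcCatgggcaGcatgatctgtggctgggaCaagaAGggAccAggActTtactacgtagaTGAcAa
Psmb7, coding bases 113 to 202: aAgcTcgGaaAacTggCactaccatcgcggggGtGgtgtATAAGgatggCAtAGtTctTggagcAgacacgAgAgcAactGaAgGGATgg
Psmb10, coding bases 101 to 190: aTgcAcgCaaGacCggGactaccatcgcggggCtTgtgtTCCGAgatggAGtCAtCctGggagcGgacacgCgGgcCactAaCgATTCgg
Even there, 22 of 90 bases differ between Psmb5 and Psmb8 and 29 of 90 between Psmb7 and Psmb10, and no run of 50 identical coding bases is shared within a pair. Sequence is also shared with copies elsewhere: 54.1% of the 50-base words of Psmb5 transcripts recur in other genes, mostly the processed pseudogene Gm3375, against 11.9% for Psmb8, whose words recur mostly in an antisense gene. The authors counted with the default settings of the Drop-seq tools. How these treat reads that fit several genes, and whether they use strand, is not spelled out in the sources used here, and the part of such reads in the levels was not tested.

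In every one of the 21 samples the immunoproteasome subunit of each pair had more molecules than its constitutive partner. Psmb8 over Psmb5 was 3.24 ± 0.577 (SD, n = 21), from 2.02 to 4.26, and Psmb9 over Psmb6 was 1.59 ± 0.400, from 1.09 to 2.43. Psmb10 over Psmb7 was 3.26 ± 1.70, from 1.44 to 8.5, with the widest spread of the 3 ratios. Psmb7 had 7 to 27 molecules in a sample. These ratios are of transcripts and say nothing of assembled complexes.

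As a share of its pair, Psmb8 made up 66.9%, 76.0% and 78.5% (lowest, median, highest) in CD4+ EE samples and 73.9%, 77.2%, 78.9%, 79.6% and 81.0% in the 5 CD4+ SE samples. It made up 71.7%, 75.3% and 80.2% in CD8+ EE samples and 71.3%, 76.3%, 76.3% and 79.6% in the 4 CD8+ SE samples. The 4 groups overlapped, with means between 74.7% and 78.1%. The share of Psmb9 was lower, with means of 60.9% ± 3.69 in CD4+ EE, 61.9% ± 5.62 in CD4+ SE, 59.5% ± 6.71 in CD8+ EE and 60.2% ± 7.33 in CD8+ SE samples, and the groups overlapped as well. The share of Psmb10 had means of 70.7% ± 8.73, 74.0% ± 5.20, 78.3% ± 8.90 and 71.9% ± 5.34 in the same order, and the 6 CD8+ EE samples, from 67.1% to 89.5%, overlapped the 4 CD8+ SE samples, from 66.0% to 78.8%. Over the 3 pairs together the share was 71.0% ± 2.75 (SD, n = 21), from 66.4% to 77.0%.

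**Figure D2:**
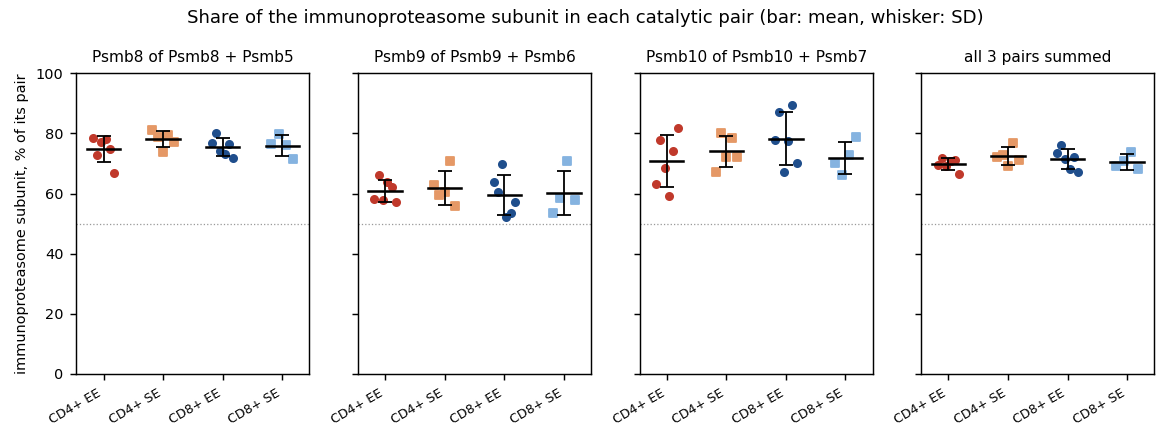
Share of the immunoproteasome subunit in each catalytic pair, in percent of the normalized counts of the pair, 1 point per sample, with the mean (bar) and SD (whisker) of each group. The dotted line marks equal counts. All points lie above it, and the groups overlap in each panel.

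The levels of the single subunits gave the same picture of overlapping groups for most of them. Psmb8, the chymotrypsin-like subunit of the immunoproteasome, had 94.99, 131 and 147 (lowest, median, highest) in CD4+ EE samples and 106, 107, 115, 116 and 118 in CD4+ SE samples. In CD8+ samples it had 111, 132 and 145 in EE and 98.04, 120.1, 124 and 131 in SE. The EE medians were the higher in both populations, but the log2 difference between EE and SE was 0.19 (95% interval -0.07 to 0.45) in CD4+ and 0.15 (-0.08 to 0.37) in CD8+ T cells, and neither passed the test. Without the 2 haemoglobin-rich samples, an alternative chosen after the data were seen, the CD8+ difference of Psmb8 was 0.25 (0.0012 to 0.49), with limma's unadjusted p = 0.0489 and adjusted p = 0.907. Psmb9 had 43.3, 62.2 and 71.8 in CD4+ EE and 32.7, 51.3, 53.2, 60.3 and 65.9 in CD4+ SE samples. In CD8+ samples it had 47.6, 53.4 and 61.1 in EE and 42.3, 43.7, 54.0 and 76.8 in SE. Over the 21 samples, SE mice held both the lowest and the highest value of Psmb9, and its log2 differences were 0.16 in CD4+ T cells, which was 0.0015 without the SE sample of mouse 6, and 0.03 in CD8+ T cells, which was 0.22 without the haemoglobin-rich samples; none passed the test.

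**Figure D3:**
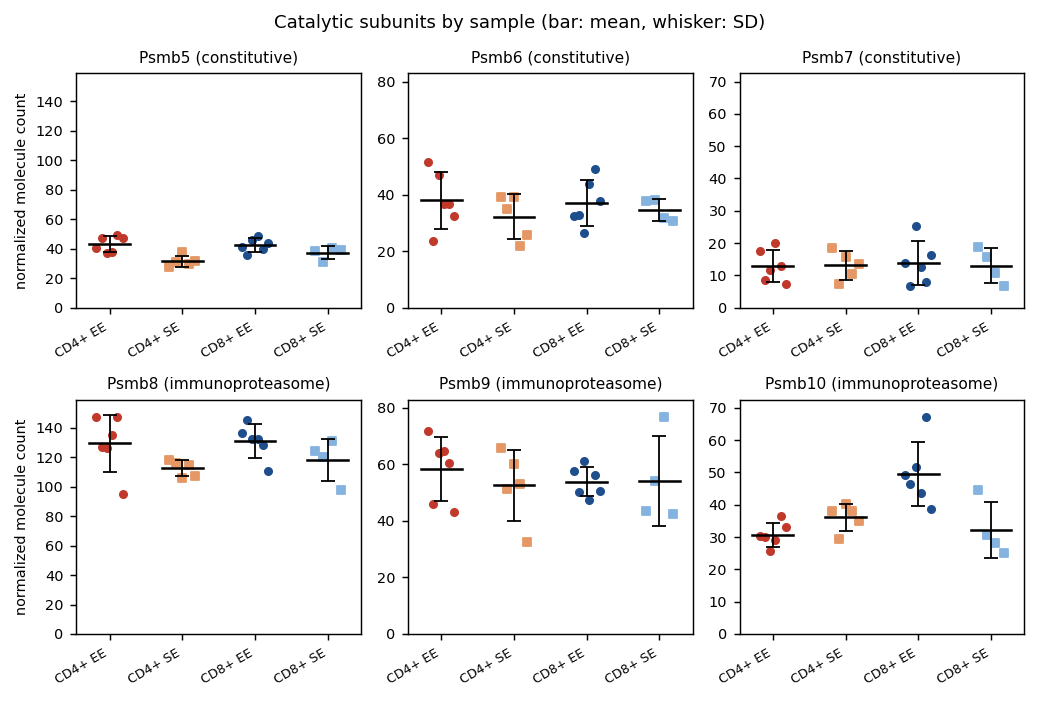
Normalized molecule counts of the constitutive (top) and immunoproteasome (bottom) catalytic subunits, 1 point per sample, with the mean (bar) and SD (whisker); the panels of a pair share the same axis from 0. Psmb8 is above Psmb5 in every group, and the 6 CD8+ EE samples of Psmb10 lie between 38.6 and 67.2.

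Psmb10, the trypsin-like subunit of the immunoproteasome, had the smallest p of the catalytic subunits between the environments in CD8+ T cells. In CD8+ T cells it had 38.6, 47.8 and 67.2 (lowest, median, highest) in EE samples and 25.0, 28.3, 30.7 and 44.5 in SE samples. All 6 EE samples were above the SE mean, and only the SE sample at 44.5 reached into the EE range. In CD4+ T cells it had 25.7, 30.1 and 36.6 in EE and 29.3, 34.9, 38.0, 38.1 and 40.2 in SE samples, where the EE median was the lower and the groups overlapped. The log2 difference between EE and SE was 0.62 ± 0.18 (SE of the estimate) in CD8+ T cells, with limma's unadjusted p = 0.00135 and adjusted p = 0.661, and -0.22 ± 0.19 in CD4+ T cells with adjusted p = 0.915. The difference between these differences, the interaction, was -0.84 ± 0.26 with an unadjusted p = 0.0020 and adjusted p = 0.924. None of these passed the threshold of 0.05 after adjustment. Without the 2 haemoglobin-rich samples the CD8+ difference was 0.64.

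Its constitutive partner Psmb7 had group means of 13.0, 13.1, 13.8 and 13.0 in CD4+ EE, CD4+ SE, CD8+ EE and CD8+ SE samples. Psmb6 had 38.0, 32.2, 37.0 and 34.6 in the same order. The largest log2 difference between EE and SE among both genes and populations was 0.22, for Psmb6 in CD4+ T cells, and none passed the test. That value ranged from 0.099 without SE mouse 5 to 0.35 without EE mouse 2. Psmb5, the constitutive chymotrypsin-like subunit, had 37.4, 43.7 and 49.4 (lowest, median, highest) in CD4+ EE samples and 27.8, 29.4, 31.1, 31.5 and 37.5 in CD4+ SE samples. Every EE sample was above the SE mean, and the groups overlapped only at 37.4 and 37.5. The log2 difference was 0.44 ± 0.19 with limma's unadjusted p = 0.0201 and adjusted p = 0.800. In CD8+ T cells Psmb5 had 35.8, 42.4 and 48.5 in EE and 30.7, 38.5, 39.4 and 40.6 in SE samples, a log2 difference of 0.18 that did not pass the test.

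The activator ring of Psme1 and Psme2 binds the ends of the barrel, and the mouse annotation lists a near copy of Psme2 as a gene of its own, Psme2b. Psme1 (chromosome 14, 55578123 to 55581529, plus strand) and Psme2 (chromosome 14, 55587441 to 55591113, minus strand) are neighbours, whereas Psme2b lies on chromosome 11 from 48945354 to 48946190 (minus strand). The coding sequences of Psme2 and Psme2b have 717 bases each and are 99.3% identical, which bears on every count of both genes. In all, 28.3% of the 50-base words of Psme2 transcripts and 69.3% of those of Psme2b recur in other genes, in the main each other. A read that lies wholly within shared sequence cannot be placed by it, so the split between these genes is uncertain, and both are also given as a sum.

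In CD8+ T cells, Psme2 had 92.1, 102 and 112 (lowest, median, highest) in EE samples and 121, 125, 145 and 147 in SE samples. All 6 EE samples lay below all 4 SE samples, and Psme2 was the only 1 of 47 members, 2.13%, whose groups did not overlap there, against 1.06% of the 7840 genes tested. The log2 difference was -0.40 ± 0.11, with limma's unadjusted p = 0.00107 and adjusted p = 0.661, and did not pass the threshold. In CD4+ T cells Psme2 had 81.2, 105 and 129 in EE and 97.8, 104, 109, 118 and 119.9 in SE samples, which overlapped throughout, with a log2 difference of -0.07. The interaction for Psme2 was 0.33 ± 0.18 with adjusted p = 0.994, so the populations were not shown to differ in this.

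Psme2b had 36.3, 41.2 and 55.0 in CD8+ EE samples and 47.7, 48.1, 61.7 and 68.9 in CD8+ SE samples, with a log2 difference of -0.36 and an adjusted p = 0.923 by limma. In CD4+ T cells it had 45.3, 49.4 and 54.7 in EE and 54.1, 54.1, 55.6, 55.8 and 73.2 in SE samples, so that only the EE sample at 54.7 reached the SE range. Its log2 difference there was -0.23. The sum of both genes in CD8+ T cells was 146 ± 15.7 over the 6 EE and 191 ± 18.6 (SD) over the 4 SE samples, without overlap, from 128 to 167 and from 169 to 214. Fitted as 1 gene, a choice made after the values were seen, the log2 difference was -0.39 ± 0.10 with limma's adjusted p = 0.534.

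For Psme1, the other gene of the ring, the groups overlapped: in CD8+ T cells it had 90.1, 97.9 and 110.0 in EE and 68.0, 101, 115 and 127 in SE samples, a log2 difference of -0.02 with a 95% interval of -0.28 to 0.25. Psme2 over Psme1 was 1.04 ± 0.142 in CD8+ EE and 1.398 ± 0.507 in CD8+ SE samples, where the ratio of 2.16 in SE mouse 3 was the highest and the other 3 reached into the EE range. The sample of SE mouse 3 is 1 of the 2 haemoglobin-rich samples, whose part in this was not tested beyond leaving both out, which gave a log2 difference of -0.38 for Psme2 and -0.21 for Psme1. Psme3, Psme4 and Psmf1 had group means between 2.85 and 10.4 and did not pass the test in any comparison. Summed over the 5 activator genes, the normalized counts were 248 ± 25.4 in CD4+ EE, 257 ± 18.9 in CD4+ SE, 259 ± 17.5 in CD8+ EE and 309.5 ± 33.4 (SD) in CD8+ SE samples, and the groups overlapped.

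Across all members, the environments did not differ past the threshold in CD4+ T cells. Of 48 members tested 0 were called by limma, as by edgeR and DESeq2, against 0.0126% of all genes tested, and 3 had an unadjusted p under 0.05, which is 6.25% against 5.82% of the 7939 genes tested. The 3 were Psmb5, Psmb3 and Psma3, all higher in EE. Psmb3, a structural beta subunit, had 45.7, 56.7 and 59.2 in EE and 18.02, 41.2, 47.5, 50.3 and 50.4 in SE samples. The SE sample at 18.02 stood far below the others, and without it the log2 difference of 0.44 was 0.18. Psma3, an alpha subunit, had 31.1, 39.9 and 51.2 in EE and 19.6, 26.5, 34.8, 38.0 and 38.3 in SE samples, with a log2 difference of 0.41, which was 0.25 without the SE sample at 19.6. Psmd9, a chaperone of the regulatory particle, had the largest difference, 1.04 with a 95% interval of -0.00026 to 2.07, on few molecules: it had 2.14, 3.72 and 9.65 in EE and 0, 0.914, 2.06, 2.75 and 4.75 in SE samples. Of the 48 members, 29 (60.4%) were higher in EE, against 50.1% of all genes tested, and the median log2 difference was 0.10 against 0.0012 over all genes, and 0.055 to 0.15 with single samples left out, below 0.065 without EE mouse 5 or SE mouse 5 and highest without EE mouse 2. The members lower in EE with the smallest p were Psme4 with -0.69, or -0.44 without SE mouse 1, Psme2b and Psmb10, none of which passed.

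By role in CD4+ T cells, 5 of 6 ATPases of the regulatory particle were higher in EE, with a median log2 difference of 0.29 and Psmc6 highest at 0.49. Of the 11 non-ATPases 7 were higher, with a median of 0.05, and of the 7 alpha subunits 4, with a median of 0.06. Of the 3 immunoproteasome subunits 2 were higher, and of the 5 activator genes 2. Of the 4 core chaperones 1 was higher, with a median of -0.15. No role group had a member past the adjusted threshold.

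In CD8+ T cells likewise, limma, edgeR and DESeq2 called 0 of 47 members, with 0% of all genes called by limma. At an unadjusted p under 0.05 there were 4 members, 8.51% against 5.27% of the 7840 genes tested: Psme2, Psmb10, Psmd6 and Psme2b. Psmd6, a lid subunit of the regulatory particle, had 0.930, 5.87 and 7.91 (lowest, median, highest) in EE and 4.42, 12.5, 13.0 and 15.4 in SE samples, with all EE samples below the SE mean. Its log2 difference was -1.03 ± 0.41, with an adjusted p = 0.898 by limma, on 1 to 18 molecules per sample. Of the 6 ATPases 2 were higher in EE, with a median of -0.11, of the 11 non-ATPases 5, of the 7 alpha subunits 4 and of the 4 core chaperones 3. By p, next came Psmb3 with 0.32 and Psmd3 with 0.54 among those higher in EE, and Psmc4 with -0.37 among those lower. Without both haemoglobin-rich samples Psmb3 was at 0.49 and Psmd3 at 0.92, and neither passed after adjustment. Psmb3 was at 0.11 without SE mouse 1 and 0.49 without SE mouse 3, and Psmd3 at 0.35 by edgeR and DESeq2, 1.00 without SE mouse 3, 0.34 without SE mouse 2 and 0.35 without SE mouse 6. The log2 differences of the 5 activator genes had a median of -0.17 and ranged from -0.40 to -0.0021, the last for Psme3, which was at 0.02 without both haemoglobin-rich samples. The immunoproteasome subunits ranged from 0.03 to 0.62 and the constitutive catalytic subunits from 0.05 to 0.18, where Psmb9 was at -0.0042 by edgeR and -0.0090 by DESeq2 and Psmb7 at -0.08 without the haemoglobin-rich samples. Over all 47 members, 25 (53.2%) were higher in EE against 49.0% of all genes, with a median of 0.03 against -0.01.

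**Figure D4:**
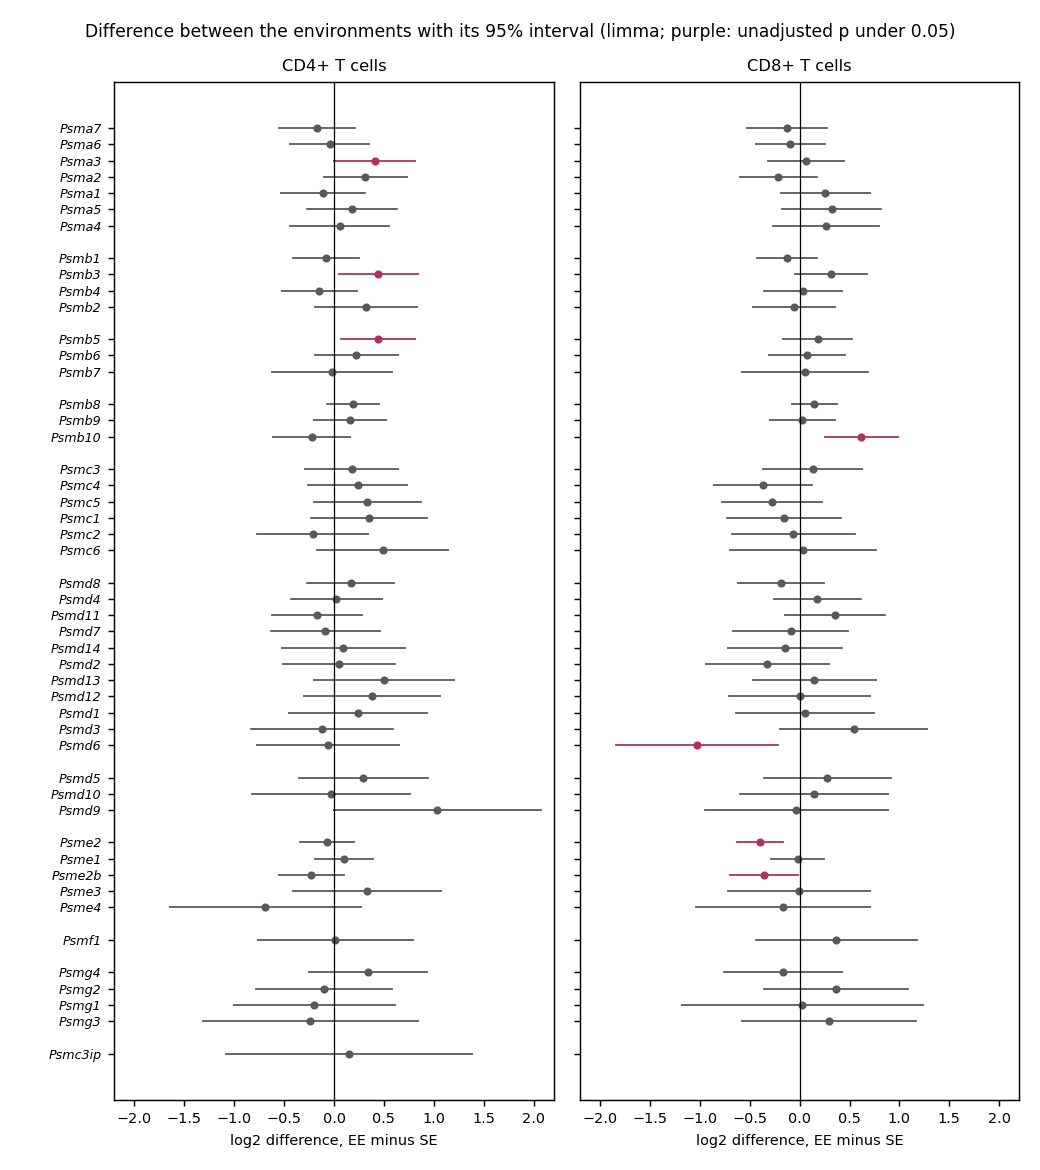
Log2 difference between EE and SE (EE minus SE, on the scale of log2(normalized count + 1)) of each member in CD4+ (left) and CD8+ (right) T cells, with its 95% interval from limma; Psmc3ip was below the filter in CD8+ T cells. Purple marks an unadjusted p under 0.05, for 3 members on the left and 4 on the right, and no member passed after adjustment.

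Whether the environments differed more in the one population than in the other was tested as an interaction over all 21 samples. Of 47 members 0 were called, by limma, edgeR and DESeq2 alike, as were 0% of all genes, and 1, Psmb10, had an unadjusted p under 0.05, which is 2.13% against 4.95% of the 7938 genes tested. The next smallest p belonged to Psma2 with an interaction of 0.53 ± 0.28, Psme2, Psmc4 with 0.61 and Psmd6 with 0.97. On the negative side Psmd11 with -0.52 and Psmd3 with -0.66 followed Psmb10. Psmd3 was at -0.37 by edgeR, -0.38 by DESeq2, -1.04 without both haemoglobin-rich samples and -1.12 without the CD8+ sample of SE mouse 3 alone. Of the members 30 (63.8%) were above 0, against 50.5% of all genes, and the median was 0.12 against 0.0049, but 0.057 without both haemoglobin-rich samples and 0.023 without the CD8+ sample of SE mouse 3 alone.

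The populations themselves differed past the threshold in 2 of 47 members, 4.26%, against 4.4% of the 7938 genes tested, so the share of members called was that of the whole table. Both were lower in CD4+ than in CD8+ T cells. Psme1 had 69.2, 77.0 and 95.8 (lowest, median, highest) in the 11 CD4+ samples and 68.0, 102 and 127 in the 10 CD8+ samples. All 11 CD4+ samples were below the CD8+ mean of 100.4, but the groups overlapped: the CD8+ sample of SE mouse 3 was the lowest of all 21, and those of EE mice 1, 2 and 5 lay below the highest CD4+ sample. The log2 difference was -0.35 ± 0.10 with limma's adjusted p = 0.0230, and within the 9 mice with both populations Psme1 was lower in CD4+ T cells in 7. Psmb2, a structural beta subunit, had 11.3, 22.0 and 30.1 in CD4+ and 21.6, 27.7 and 34.8 in CD8+ samples. It was below the CD8+ mean in 10 of 11 CD4+ samples, and its log2 difference was -0.56 ± 0.16 with limma's adjusted p = 0.0282. It was lower in CD4+ T cells in 6 of the 9 mice.

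Both calls were lost when the 9 mice with both populations entered with the mouse as a replicate block, where Psme1 had -0.29 with an adjusted p = 0.145 and Psmb2 -0.53 with an adjusted p = 0.113. With the mouse as a random block over all 21 samples both were kept, with 2 members called. Within EE samples alone Psme1 had -0.29 (adjusted p = 0.254) and Psmb2 -0.37 (adjusted p = 0.441), and within SE samples alone -0.41 (adjusted p = 0.343) and -0.75 (adjusted p = 0.210), so neither was called within an environment. Without the CD8+ sample of SE mouse 1 the adjusted p of Psme1 was 0.0846 and without that of SE mouse 2 it was 0.119. For Psmb2 it was between 0.0539 and 0.0770 without any 1 of the CD4+ samples of EE mice 2 and 6 and SE mice 1 and 4, or the CD8+ samples of EE mice 5 and 6 and SE mouse 6. Without both haemoglobin-rich samples Psme1 had -0.43 with an adjusted p = 0.00322 and Psmb2 -0.55 with an adjusted p = 0.0747. The B cell genes also differed between the populations, with Cd79a at 12.2 ± 8.59 over the CD4+ and 0.612 ± 1.62 (SD) over the CD8+ samples, and their part in these differences was not tested.

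**Figure D5:**
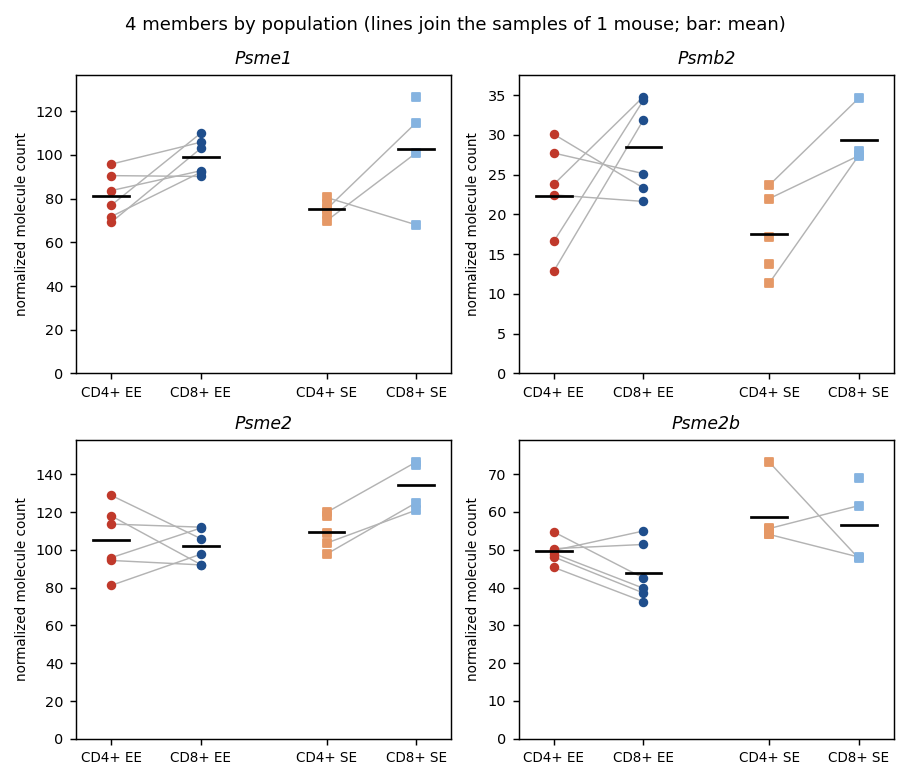
Normalized molecule counts of Psme1, Psmb2, Psme2 and Psme2b in CD4+ and CD8+ T cells of EE and SE mice, with lines joining the samples of the same mouse and bars at the group means. Psme1 and Psmb2 were lower in CD4+ T cells in 7 and 6 of 9 mice. The CD8+ EE samples of Psme2 all lie below the CD8+ SE samples.

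With EE samples only, 1 of 47 members was called, Psmb10, against 227 of the 7874 genes tested. Its log2 difference between CD4+ and CD8+ T cells was -0.66 ± 0.17 there, with limma's adjusted p = 0.0117. That fit did not pair the samples of a mouse. With SE samples only Psmb10 had 0.19 ± 0.22 with an adjusted p = 0.891, and over all samples -0.23 with an adjusted p = 0.421. The interaction above is the test of whether EE and SE differ in this, and it did not pass. At an unadjusted p under 0.05 there were 5 members between the populations, 10.6% against 14.8% of all genes: Psme1, Psmb2 and, higher in CD4+ T cells, Psmd11, Psmg1 and Psmc2. Psmd11, a lid subunit, had 16.03, 23.4 and 31.1 in CD4+ and 12.1, 18.7 and 22.2 in CD8+ samples, with a log2 difference of 0.46 and an adjusted p = 0.111. It was at 0.20 with EE samples only and 0.72 with SE samples only. Psmg1, a chaperone of the core, had 5.55 ± 1.75 and 3.45 ± 2.78, and Psmc2, an ATPase, 15.0 ± 4.35 and 10.5 ± 2.79. No member had groups without overlap between the populations, against 0.869% of all genes, nor between the environments in CD4+ T cells, against 0.453%. Psmb8, Psmb9, Psmb5 and Psmb6 differed by -0.04, 0.03, -0.11 and -0.05 on the log2 scale between CD4+ and CD8+ T cells, and the 95% interval of each included 0.

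Genes that act beside the proteasome were read from 3 lists. Of 15 factors associated with the complex, 0 were called in any of the 4 comparisons, in which 0% to 4.4% of all genes were called. Pomp, which guides the assembly of the core, had group means of 39.4, 34.5, 39.9 and 41.8. Of the 4 ubiquitin genes 0 were called as well. At these shares, lists so short do not stand apart from the whole table. Of 13 genes of peptide loading and its regulators 1 was called, between the populations, where 4.4% of all genes were: Nlrc5, the transcriptional regulator of MHC class I genes, was lower in CD4+ T cells. It had 0.950, 5.57 and 10.1 (lowest, median, highest) in CD4+ and 5.64, 9.47 and 24.9 in CD8+ samples, with a log2 difference of -0.89 ± 0.27 and limma's adjusted p = 0.0411. The call was lost with a pseudocount of 0.5 (-0.96, adjusted p = 0.0506), with the 9 mice as a replicate block (-0.69, adjusted p = 0.242), without both haemoglobin-rich samples (-0.83, adjusted p = 0.113), with EE samples only (-0.71, adjusted p = 0.312) and with SE samples only (-1.07, adjusted p = 0.353). The adjusted p stayed under the threshold in 12 of the 21 fits that each left out 1 sample, and was between 0.0552 and 0.142 without the CD4+ sample of EE mouse 1 or 4 or SE mouse 1 or 5, or the CD8+ sample of EE mouse 1, 4 or 6 or SE mouse 1 or 2. Tap1 and Tap2, which carry peptides into the endoplasmic reticulum and lie between and beside Psmb9 and Psmb8, had 31.1 ± 5.35 and 15.9 ± 5.57 over the 21 samples and were not called in any comparison. Tap1 shares 4.2% of the 50-base words of Psmb9, as the genes overlap on opposite strands.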

How the data were processed

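The deposited values were signal, molecule counts with unique molecular identifiers that the authors divided by DESeq2 size factors. Per the study's methods, reads were trimmed with cutadapt, mapped to mm10 with STAR 2.4.0a and counted with Drop-seq tools on the Ensembl GRCm38 gene model, after which low genes were removed and samples excluded for purity. All 21 columns were matched to the labels. Dividing each column by its smallest positive value gave whole molecules for 100% of values (tolerance 0.01), and their sums, 145546 to 221454 per sample, are the depth. The limit for a count of 0 covers counting error only, while the 95% intervals are limma's and cover the spread between samples.

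Log2(normalized count + 1) was tested with limma 3.58.1 (trend) on R 4.3.3, for genes with a mean above 2, with Benjamini-Hochberg adjustment over all genes and a threshold of 0.05, as EE against SE in each population, CD4+ against CD8+ T cells over all samples, and the interaction. Between the environments, the p-values are over mice of 1 cage per environment. For CD4+ against CD8+ T cells and for the interaction, the main fit took the 21 samples of 12 mice as independent. edgeR 4.0.16 and DESeq2 1.42.0 on the recovered molecules were alternatives. For CD4+ against CD8+ T cells the animal labels pair the samples of 9 mice; deviations from the group means correlated at a mean r of 0.014 within mice (9 pairs) and -0.0027 between mice (47 pairs). No 2 samples of a group agreed within sampling noise. Members and lists were chosen with earlier results of these data known. Named were genes past the threshold, the 3 higher and 3 lower members with the smallest p in each comparison, the catalytic pairs, activators and inhibitor, and the highest and lowest member of each role; Cd4, Cd8a and Cd79a are markers. Positions and coding sequences are from GENCODE M21 on GRCm38, in which all 48 members were found by symbol. Sequence of the activator genes is not reported here.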

Additional observations from a re-analysis of the deposited data

Results flagged for a closer look

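Within the groups of 4 to 6 samples, 9 of 144 groups held a sample far from the others, over the levels of the named members and the shares of the 3 catalytic pairs in the 4 groups, where chance gives about 1 in 20, or 7.2. Among the activators, Psme2b was at 73.2 in the CD4+ sample of SE mouse 3, against 54.1 to 55.8 in the other SE samples. Among the structural beta subunits, Psmb3 was at 18.02 (16 molecules) in the CD4+ sample of SE mouse 6, against 41.2 to 50.4, and Psmb2 at 34.6 in the CD8+ sample of SE mouse 6, against 27.4 to 27.9. In the regulatory particle, Psmd3 was at 17.7 in the haemoglobin-rich CD8+ sample of SE mouse 3, against 3.72 to 5.14, and Psmc2 at 15.8 in the CD8+ sample of EE mouse 5, against 8.70 to 9.45. The chaperone Psmd5 was at 11.4 in the CD4+ sample of SE mouse 5, against 7.21 to 8.237, and Psmg3 at 0 in the CD4+ sample of EE mouse 1, against 3.66 to 5.36. Psmc3ip was at 3.16 (4 molecules) in the CD8+ sample of EE mouse 5, against 0 to 0.971. It was at 0 in the CD8+ sample of SE mouse 2, against 0.856 to 0.961, in a group where no sample had more than 1 molecule. The causes were not tested.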

How the results depend on the processing

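The number of members called stayed at 0 between the environments and for the interaction under every alternative run. Between the populations it was 2, but 1 with EE samples only, 0 with SE samples only, 0 with the 9 paired mice as a replicate block, 1 without both haemoglobin-rich samples and 1 to 2 when single samples were left out; the median log2 difference of 0.01 was -0.061 with SE samples only. Fewer samples entered each of these fits, and of all genes 227, 105, 315 and 297 were called in the same 4 fits, against 349. Of 1109 values of 44 gene results under alternatives, 1029 kept direction and side of the threshold, 49 changed sign, 30 lost and 1 gained a call. Most of these results were not called in the main fit and had no call to lose. All 30 losses were of Psme1, Psmb2 and Nlrc5 between the populations. Psme1 stayed under the threshold in 9 of 12 alternatives, Psmb2 in 8 of 12 and Nlrc5 in 6 of 11. With single samples left out they did so in 19, 14 and 12 of 21 fits. Sign changes between the environments were Psmb7 in CD4+ T cells at 0.074 and Psmb6 in CD8+ T cells at -0.098 with a replicate block on the animal number, and in CD8+ T cells Psmb9 at -0.0042 by edgeR and -0.0090 by DESeq2 and Psmb7 at -0.077 without the haemoglobin-rich samples. Between the populations, Psmb5, Psmb6, Psmb7 and Psme2 were at 0.023, 0.021, -0.036 and 0.035 with EE samples only, Psmb10 and Psmb9 at 0.19 and -0.037 with SE samples only, Psmb7 at -0.060 by edgeR and -0.052 by DESeq2, and Psmb6 and Psmb9 at 0.00024 and -0.011 with the paired mice as a replicate block. The cause was not tested.

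With single samples left out, sign changes came in CD4+ T cells for Psmb7 (-0.19 to 0.11) and Psme2 (-0.13 to 0.00044), and in CD8+ T cells for Psmb6 (-0.011 to 0.16), Psmb7 (-0.20 to 0.25), Psmb9 (-0.075 to 0.21), Psme1 (-0.20 to 0.094) and the median over members (-0.040 to 0.054). Between the populations they came for Psmb6 (-0.10 to 0.0079), Psmb7 (-0.13 to 0.099), Psmb9 (-0.022 to 0.12) and the median (-0.025 to 0.041). The interaction median ranged from 0.023 to 0.14, lowest without the CD8+ sample of SE mouse 3. The EE and SE mice share only a number, whose samples correlated at 0.0083 in CD4+ and 0.0052 in CD8+ T cells, and the block on it changed no member's call. At these depths genes such as Psmd6, Psmd9 and Psmc3ip rest on a few molecules.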
